A study of Rattus norvegicus with 13 samples.

Results

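The 79 genes described here encode the subunits of oxidative phosphorylation, grouped by respiratory complex. They were taken by symbol from the 10411 genes with 1 symbol on a rat expression array: Nduf genes other than the Ndufaf assembly factors for complex I (36 genes), Sdha to Sdhd for complex II (4), Uqcr genes for complex III (7), Cox4 to Cox8 genes for complex IV (16) and Atp5 genes for complex V (16). Where a gene had several probe sets, the one with the highest mean log2 signal over all 13 arrays stood for it. A symbol rule takes in some genes that are not structural subunits: Cox7a2l acts in joining complexes into supercomplexes, Atp5if1 is an inhibitor of the ATP synthase, and Cox6c-ps1 is a pseudogene, whose signal cannot be told apart from that of its parent Cox6c if the probes match both. Ndufa4 is counted with complex I by its name, although it is now placed in complex IV. Cyc1, the cytochrome c1 of complex III, is not matched by the symbol rule and is left out of these counts. A filter on dim probe sets kept 75 of the 79 genes for testing (35, 4, 7, 13 and 16 in complexes I to V), and Ndufb8, Cox6a2, Cox6b2 and Cox8b were not tested.

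The study asked how RNA profiles of glomeruli, the capillary tufts that filter blood in the kidney, compare between conventional isolation and laser capture microdissection (LCM). All samples are labelled as from untreated Lewis-Hsd rats of 18 weeks on a regular diet. In the group called sieved here, titled iron in the labels (n = 4 arrays), 1 kidney of a pair received iron oxide through the aorta, and glomeruli were taken from it by sieve and magnet, to a stated purity of over 99%, with no amplification of the RNA. In the groups titled LCM 800 (here LCM800, n = 5) and LCM 20 (here LCM20, n = 4), glomeruli were cut by laser from frozen sections, described as 10 µm thick, and the RNA passed through 2 rounds of amplification. The protocol names about 800 cross-sections for both LCM groups, and what the number 20 stands for is not stated. So way of isolation, amplification and perfusion of the kidney differ together between the sieved and the LCM arrays, and their effects cannot be told apart. The titles call the replicates biological without naming the rats, so the p values measure the spread between these samples. The protocol also speaks of anti-Thy1.1 rats, though each sample is labelled untreated, and the description field of all 13 samples speaks of embryos, which goes against the labelled age and tissue.

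Oxidative phosphorylation moves electrons from NADH (through complex I) and succinate (through complex II) to ubiquinone, then through complex III and cytochrome c to complex IV, which reduces oxygen. Complexes I, III and IV pump protons across the inner mitochondrial membrane, and complex V, the ATP synthase, uses the proton gradient to make ATP. In the kidney, proximal tubule cells are rich in mitochondria, while podocytes and the other glomerular cells hold fewer. The central subunits of complexes I, III, IV and V that mitochondrial DNA encodes are not covered by these symbols.

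Some arrays stood apart from others of their group. LCM800 replicates 4 and 5 correlated with each other at r = 0.937 over the 11106 probe sets tested and replicates 1 to 3 with one another at 0.8926 to 0.9302, but the pairs across these sets had r from 0.7183 to 0.8117. Sieved replicate 3 correlated with the other sieved arrays at 0.8729 to 0.8973, against 0.9638 to 0.9836 among those 3. The median signal per array lay between 236.4 and 320.8 intensity units. Precision is limited by the small number of arrays. The 3′ minus 5′ log2 signal of the β-actin controls was 0.55 ± 0.02 (SD, n = 4) in sieved, 2.77 ± 1.03 (n = 5) in LCM800 and 1.80 ± 0.45 (n = 4) in LCM20 arrays. For the GAPDH control it was 0.52 ± 0.15, 1.22 ± 0.49 and 1.14 ± 1.38, and for the hexokinase control, in the other direction, 0.73 ± 0.14, 0.23 ± 0.33 and 0.44 ± 0.31. Most genes of proximal tubule, a tissue that glomerular preparations can carry along, were lower in both LCM groups. Of 27 measured markers, 26 fell in LCM800 and 26 in LCM20, with median log2 changes of -2.90 and -2.95. The other, Pck1, rose by 1.07 in LCM800 (limma, adjusted p = 0.00559) and changed by 0.55 in LCM20 (adjusted p = 0.143). Of all probe sets tested, 20.1% were lower in LCM800 and 19.2% in LCM20. Among those with sieved mean log2 levels of 10.13 to 12.59, a range holding the markers' 12.07, 49.9% and 45.0% were. Some markers, such as Slc13a1 (mean signals 1971.5, 100.3 and 68.5 in sieved, LCM800 and LCM20), were bright in sieved arrays alone. The mean log2 level of these 27 markers per array ran from 11.30 to 12.40 in sieved, 9.29 to 9.89 in LCM800 and 8.77 to 9.97 in LCM20 arrays, with sieved replicate 3 at 11.30, and no group had a marker at a signal of 0.

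More subunit genes were lower than higher in glomeruli cut by laser. In LCM800 against sieved, 40 of the 75 tested members were lower and 9 higher (limma, adjusted p under 0.05), where 20.1% of all 11106 probe sets were lower and 31.8% higher. The median log2 change of the members was -1.08, with quartiles at -1.62 and -0.00, beside 0.22 for all probe sets. In LCM20 against sieved, 35 members were lower and 11 higher, beside 19.2% and 26.2% of all probe sets, and the member median was -0.73 beside 0.17. Each change is the difference between 2 group means of log2(signal + 65.29) with the standard error (SE) of the fit, so they understate the change of dim genes. Without sieved replicate 3 and LCM800 replicates 4 and 5, chosen after seeing the data, 41 members were lower and 13 higher in LCM800 (median -0.89), and 39 lower and 12 higher in LCM20 (median -0.74). Both comparisons use the same 4 sieved arrays and are not independent. In bulk samples such as these, fewer cells of a type and less RNA per cell cannot be told apart.

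Bright genes fell more often than dim ones in these arrays, and most subunit genes are bright. Among the 2039 probe sets with a sieved mean log2 level between 10.13 and 12.59, the 10th to 90th percentile of the members, 49.9% were lower and 11.5% higher in LCM800, with a median of -0.74. The 59 members in that range had 35 lower (59.3%), 5 higher (8.47%) and a median of -1.21. In LCM20 the same probe sets were lower in 45.0% and higher in 13.4%, and the members in 50.8% and 11.9%, with medians of -0.59 and -0.83. This range is set by the same sieved arrays that enter the comparison. The members differed less from probe sets of like level than from all probe sets. The part of the tubule markers, of the 3′ to 5′ ratio and of amplification in these falls was not tested.

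**Figure D1:**
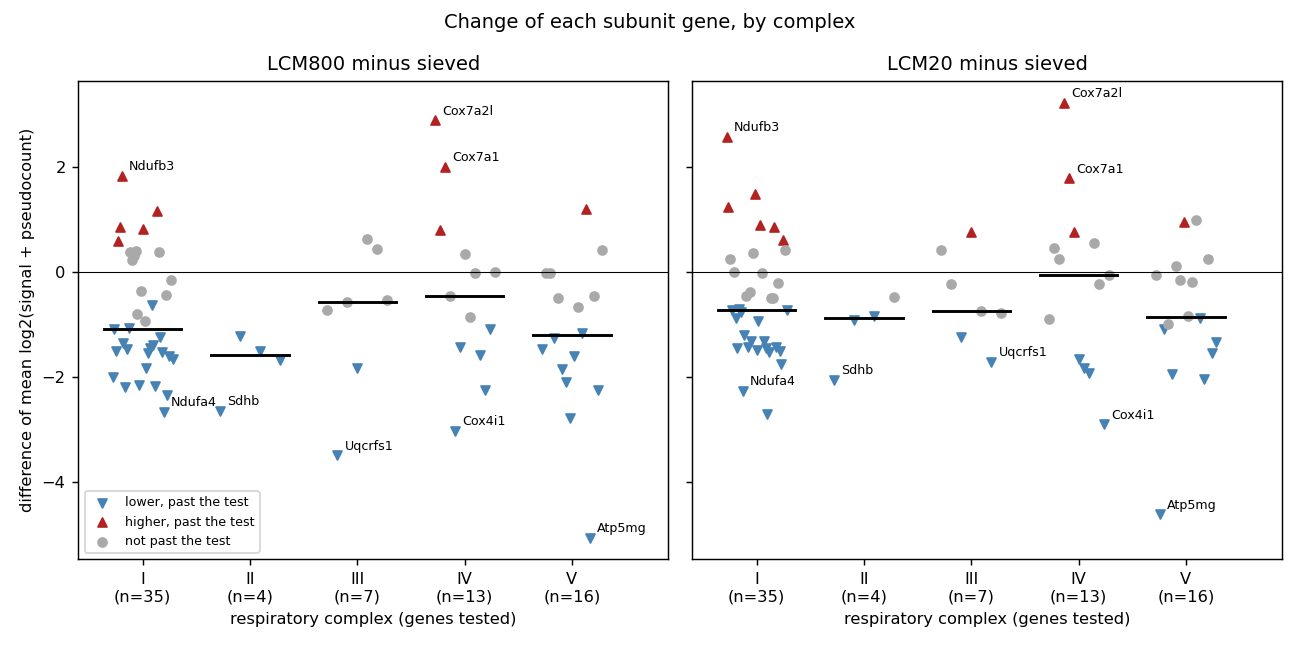
Change of each tested subunit gene in LCM800 (left) and LCM20 (right) against sieved, as a difference of mean log2(signal + pseudocount), by complex; each symbol is 1 gene, blue triangles are lower and red ones higher past the test, grey circles are not past it, and black lines are medians. The medians run from -1.58 in complex II to -0.46 in complex IV on the left and from -0.88 in complex II to -0.05 in complex IV on the right, and Atp5mg and Cox7a2l lie at the extremes.

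Complex I, the NADH dehydrogenase, had 20 lower (57.1%) and 5 higher (14.3%) of 35 tested members in LCM800 (median -1.09). In LCM20, 19 were lower (54.3%) and 6 higher (17.1%), with a median of -0.73. Of all probe sets, 20.1% were lower and 31.8% higher in LCM800, and 19.2% and 26.2% in LCM20. Of the 6 measured nuclear core subunits, among them those that carry the flavin and iron-sulfur clusters, 5 fell in LCM800 and 6 in LCM20, with medians of -1.31 and -1.43. Ndufs3, a core subunit near the ubiquinone end, had signals of 1588, 1850, 1282 and 1795 in sieved arrays, 165, 316, 368, 368 and 349 in LCM800 arrays and 406, 421, 345 and 592 in LCM20 arrays. Every LCM array lay below every sieved array, and the changes were -2.19 ± 0.22 (adjusted p = 2.41e-06) and -1.75 ± 0.24 (adjusted p = 3.52e-05). Ndufs1, the largest iron-sulfur subunit, fell, with log2 changes of -1.55 and -1.48 (adjusted p = 2.54e-05 and 8.13e-05). Ndufv1, which binds NADH and the flavin, fell, with log2 changes of -1.39 and -1.44 (adjusted p = 0.00698 and 0.00915). Ndufv2, Ndufs8 and Ndufs7, which carry iron-sulfur clusters, changed by -1.23, -1.09 and -0.94 in LCM800 and by -0.73, -0.94 and -1.42 in LCM20. All of these but Ndufs7 in LCM800 (adjusted p = 0.124) passed the test. The LCM20 call of Ndufs7 was lost without sieved replicate 1, 2 or 4 or LCM20 replicate 1 or 2 (changes -1.38 to -1.15, adjusted p 0.0742 to 0.113). It was also lost with quantile normalization (-1.35, adjusted p = 0.052). The LCM20 call of Ndufv2 was lost without sieved replicate 2 (-0.62, adjusted p = 0.067).

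The accessory subunits of complex I moved both ways. Of the 12 tested Ndufb and Ndufc subunits, which line the membrane arm, 8 fell and 2 rose in LCM800 (median -1.41), and 6 fell and 2 rose in LCM20 (median -0.62). Ndufb3 was the highest riser of the complex, with signals of 2231, 2698, 2527 and 2794 in sieved, 5195, 5396, 10598, 12746 and 18656 in LCM800, and 24890, 16162, 11173 and 12992 in LCM20 arrays. No LCM array reached down to the sieved range, although the LCM800 arrays spread over more than 3-fold, and the changes were 1.84 ± 0.35 (adjusted p = 0.000506) and 2.58 ± 0.37 (adjusted p = 6.26e-05). Ndufb5, a neighbour in the same arm, rose by 1.17 ± 0.23 and 1.49 ± 0.24 (adjusted p = 0.000547 and 0.000155). Ndufc2 and Ndufb10 fell, with log2 changes of -2.17 and -2.15 in LCM800 and -1.31 and -1.52 in LCM20 (adjusted p = 7.35e-06, 3.93e-06, 0.000999 and 0.000168). Ndufb8 did not pass the filter on the mean level over all arrays, with 238 to 444 in sieved and 18.1 to 75.3 intensity units in LCM arrays. Its log2 differences of -2.17 in LCM800 and -2.06 in LCM20 were not tested, so it is missing from the counts of lower members.

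The other 17 accessory subunits had 7 lower (41.2%) and 3 higher (17.6%) in LCM800 (median -0.44). In LCM20, 7 were lower (41.2%) and 4 higher (23.5%, near the 26.2% of all probe sets), with a median of -0.38. Ndufa4 had 5901, 5941, 4988 and 6338 in sieved arrays, 813, 886, 1105, 1118 and 507 in LCM800 arrays and 1147, 1274, 1350 and 888 in LCM20 arrays. The LCM arrays did not overlap the sieved arrays, and Ndufa4 fell, with log2 changes of -2.66 ± 0.23 and -2.26 ± 0.25 (adjusted p = 5.43e-07 and 5.61e-06). Ndufa11, an accessory membrane subunit, fell, with log2 changes of -2.35 and -2.71 (adjusted p = 5.86e-06 and 3.71e-06). Ndufs4, known for its mutation in Leigh syndrome, rose by 0.86 ± 0.19 and 0.89 ± 0.20 (adjusted p = 0.00159 and 0.00212), and the small membrane subunit Ndufa1 by 0.82 ± 0.21 and 1.24 ± 0.23 (adjusted p = 0.00512 and 0.00043). Ndufa12 rose in LCM800 by 0.59 (adjusted p = 0.0324) with overlapping ranges, and its call was lost without sieved replicate 1, 2 or 4 or LCM800 replicate 2, 3 or 5 (changes 0.53 to 0.62, adjusted p 0.0562 to 0.0823), with equal medians (0.49, adjusted p = 0.0941) and without LCM800 replicates 1 to 3 (0.36, adjusted p = 0.265). The replicate block also ended this call (0.56, adjusted p = 0.0743). In LCM20 Ndufa12 changed by 0.43 (adjusted p = 0.142).

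Complex II, the succinate dehydrogenase, links the tricarboxylic acid cycle to the chain. It had a median of -1.58 in LCM800, where 4 of 4 members fell, and of -0.88 in LCM20, where 3 fell. These were the lowest of the 5 medians, but not in every alternative. Without LCM800 replicates 1 to 3 its LCM800 median was -1.09, above the -1.20 of complex I and the -1.40 of complex III, and in LCM20 complex V, at -0.85, was lower with quantile normalization, without LCM20 replicate 1 and without sieved replicate 1. Sdhb, the iron-sulfur subunit, had 2790, 2919, 2166 and 3042 in sieved, 501, 141, 250, 762 and 497 in LCM800, and 445, 528, 620 and 908 in LCM20 arrays. All LCM arrays lay under all sieved arrays, with log2 changes of -2.64 ± 0.33 (adjusted p = 1.41e-05) and -2.05 ± 0.35 (adjusted p = 0.000262). Sdha, the flavin-bearing catalytic subunit, had 4435, 4646, 3665 and 4338 in sieved arrays, 757, 796, 1052, 2583 and 2120 in LCM800 arrays and 2056, 2304, 2208 and 2313 in LCM20 arrays. It changed by -1.67 ± 0.31 in LCM800 (adjusted p = 0.000431), and by -0.92 ± 0.33 in LCM20 (adjusted p = 0.0323), where the call was lost without any 1 of the 4 LCM20 arrays or sieved replicate 1, 2 or 4 (changes -0.94 to -0.88, adjusted p 0.0511 to 0.0736). The LCM20 call of Sdha was also lost with quantile normalization (-0.83, adjusted p = 0.0547). Without LCM800 replicates 1 to 3 its LCM800 change was -0.84. The membrane anchor Sdhc fell, with log2 changes of -1.50 and -0.83 (adjusted p = 4.55e-05 and 0.00772). Its partner Sdhd changed by -1.21 (adjusted p = 0.00181) and -0.47 (adjusted p = 0.193). Another probe set of Sdhd gave -0.28 (adjusted p = 0.25) and -0.38 (adjusted p = 0.155). The LCM800 call of Sdhd was also lost without LCM800 replicates 1 to 3 (-0.54, adjusted p = 0.0627). Its LCM20 change passed the test in 2 of 27 alternatives, without LCM800 replicates 1 to 3 (adjusted p = 0.0445) and without 4 and 5 (adjusted p = 0.0397).

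Complex III, the cytochrome bc1 complex, had 2 of 7 members lower in LCM800 (28.6%, beside 20.1% of all probe sets), with a median of -0.57. In LCM20, 2 were lower (28.6%, beside 19.2%) and 1 higher (14.3%, beside 26.2%), with a median of -0.74. The LCM800 median of complex III was -0.32 without LCM800 replicate 4. Cyc1, which the symbol rule leaves out, is given below with the electron carriers and fell in both LCM groups. Uqcrfs1, the Rieske iron-sulfur protein, had 3574, 4141, 2644 and 3443 in sieved, 144, 12.7, 220, 713 and 716 in LCM800, and 1203, 1155, 570 and 1238 in LCM20 arrays. It changed by -3.49 ± 0.52 in LCM800 (adjusted p = 6.14e-05) and by -2.15 without LCM800 replicates 1 to 3. LCM800 replicate 2, at 12.7, lay under the pseudocount of 65.29, so the size of the LCM800 change depends in part on it. Over the alternatives the LCM800 change ran from -4.38 to -2.15. In LCM20 Uqcrfs1 fell by 1.71 ± 0.55 (adjusted p = 0.019). That call was lost without LCM20 replicate 3 (-1.46, adjusted p = 0.0641) and with no pseudocount (-1.78, adjusted p = 0.118). The core subunit Uqcrc2 fell, with log2 changes of -1.82 and -1.24 (adjusted p = 0.00113 and 0.0216), with a change of -0.95 without LCM800 replicates 1 to 3. Its LCM20 call was lost without sieved replicate 1, 2 or 4 or LCM20 replicate 3 (-1.19 to -1.03, adjusted p 0.0502 to 0.0731). Its partner Uqcrc1 changed by -0.54 (adjusted p = 0.413) and -0.23 (adjusted p = 0.763). Uqcrh, the hinge protein next to cytochrome c1, rose in LCM20 by 0.77 (adjusted p = 0.0106) and changed by 0.44 in LCM800 (adjusted p = 0.0893).

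Complex IV, the cytochrome c oxidase, had 5 lower (38.5%) and 3 higher (23.1%) of 13 tested members in LCM800 (median -0.46). In LCM20, 4 were lower (30.8%) and 3 higher (23.1%), with a median of -0.05. Of all probe sets, 20.1% were lower and 31.8% higher in LCM800, and 19.2% and 26.2% in LCM20, so the share of rises in LCM20 was near that of all probe sets. The LCM800 median of complex IV was -0.24 without LCM800 replicate 1 and -0.00 with no filter on dim probe sets. Its LCM20 median ran from -0.13 to 0.04 when 1 array was left out. The 9 tested subunits expressed in most tissues had 5 lower (55.6%) and 1 higher (11.1%) in LCM800, with a median of -1.08. In LCM20, 4 of them were lower (44.4%) and 1 higher (11.1%), with a median of -0.89. Cox4i1, the common form of the largest nuclear-encoded subunit, had 9278, 9072, 6271 and 8450 in sieved, 1011, 1493, 1422, 697 and 508 in LCM800, and 1073, 481, 1125 and 1939 in LCM20 arrays. The LCM arrays lay far below the sieved arrays, and Cox4i1 fell, with log2 changes of -3.02 ± 0.35 (adjusted p = 7.58e-06) and -2.90 ± 0.37 (adjusted p = 2.37e-05). Cox7b fell, with log2 changes of -2.25 and -1.93 (adjusted p = 4.01e-07 and 3.51e-06), Cox5b with -1.58 and -1.83 (adjusted p = 0.000592 and 0.00035) and Cox6a1 with -1.43 and -1.65 (adjusted p = 0.00326 and 0.0022). Cox5a, which sits beside Cox5b on the matrix side, rose by 0.81 ± 0.19 and 0.76 ± 0.20 (adjusted p = 0.00226 and 0.00585). Cox8a, a small membrane subunit, changed by 0.00 ± 0.24 (adjusted p = 0.988) and -0.22 ± 0.25 (adjusted p = 0.489).

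Genes linked to complex IV that are not among its general subunits held the largest rise of all members in both LCM groups. Cox7a2l, the supercomplex factor, had 1148, 1228, 1590 and 1178 in sieved arrays, 10859, 11661, 12077, 5739 and 11123 in LCM800 arrays and 18059, 14139, 8764 and 11016 in LCM20 arrays. The lowest LCM array was over 3 times the highest sieved array, and the changes were 2.90 ± 0.27 (adjusted p = 9.63e-07) and 3.23 ± 0.28 (adjusted p = 8.9e-07). Cox7a1, the heart and muscle isoform of subunit 7a, had 161, 212, 547 and 188 in sieved, 1624, 2625, 1446, 593 and 654 in LCM800, and 757, 854, 1370 and 1218 in LCM20 arrays. Its LCM arrays did not overlap the sieved arrays, though sieved replicate 3 lay near the lowest LCM800 arrays. Cox7a1 rose by 2.01 ± 0.39 (adjusted p = 0.00061) and 1.79 ± 0.41 (adjusted p = 0.00263). With LCM800 replicates 1 to 3 left out it rose by 1.13 (adjusted p = 0.0217). Cox4i2, the lung isoform of subunit 4, changed by 0.34 (adjusted p = 0.266) and 0.56 (adjusted p = 0.0979), and the muscle isoform Cox8b lay under the pseudocount in all 13 arrays.

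Complex V had 9 lower (56.2%) and 1 higher (6.25%) of 16 members in LCM800 (median -1.20). In LCM20, 7 were lower (43.8%) and 1 higher (6.25%), with a median of -0.85. Of all probe sets, 20.1% were lower and 31.8% higher in LCM800, and 19.2% and 26.2% in LCM20. The 4 subunits of the peripheral stalk, which holds the catalytic head still, fell in LCM800 in 4 of 4 cases (median -2.04) and in LCM20 in 3 (median -1.51). Atp5pb, its membrane-anchored subunit b, had 4807, 5429, 3394 and 4169 in sieved, 380, 283, 676, 1049 and 817 in LCM800, and 739, 1175, 1072 and 1493 in LCM20 arrays. It fell, with log2 changes of -2.78 ± 0.32 (adjusted p = 5.86e-06) and -1.95 ± 0.33 (adjusted p = 0.000256), with no overlap between LCM and sieved arrays. Atp5pd fell, with log2 changes of -2.25 and -2.03 (adjusted p = 3.9e-06 and 2.07e-05). Atp5pf, the coupling factor 6 subunit, changed by -1.84 (adjusted p = 0.00382) and -0.83 (adjusted p = 0.173), and without LCM800 replicates 1 to 3 the LCM800 call was lost (-0.64, adjusted p = 0.118). Its LCM20 change passed the test in 3 of 27 alternatives, among them a fit of only the groups compared (adjusted p = 0.0177).

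Of the 5 subunits of the F1 head, where ATP is made, 4 fell and 1 rose in LCM800 (median -1.25) and 3 fell in LCM20 (median -0.87). Atp5f1a, the alpha subunit, fell, with log2 changes of -2.09 ± 0.22 (adjusted p = 3.64e-06) and -1.55 ± 0.24 (adjusted p = 0.000101). The catalytic beta subunit Atp5f1b fell, with log2 changes of -1.25 and -0.87 (adjusted p = 0.00151 and 0.0229). Its LCM20 call was lost without sieved replicate 2 or LCM20 replicate 2 or 3 (-0.81 to -0.76, adjusted p 0.0584 to 0.0662), and its LCM800 call without LCM800 replicates 1 to 3 (-0.65, adjusted p = 0.0529). The gamma subunit Atp5f1c, the rotor shaft, changed by -1.47 (adjusted p = 0.00313) and -0.19 (adjusted p = 0.71), and by -0.51 in LCM800 without replicates 1 to 3 (adjusted p = 0.0988). The epsilon subunit Atp5f1e rose in LCM800 by 1.20 (adjusted p = 0.023), with overlapping ranges, and changed by 1.0 in LCM20 (adjusted p = 0.0701). In LCM20 its range did not overlap the sieved range. That change passed the test in 6 of 27 alternatives, among them a fit of only the groups compared (adjusted p = 0.00625). Its LCM800 call was lost without sieved replicate 1 or 2 or LCM800 replicate 1, 2 or 3 (0.95 to 1.11, adjusted p 0.0514 to 0.0698). The LCM800 change was 0.11 (adjusted p = 0.779) without all of LCM800 replicates 1 to 3. It was 1.92 (adjusted p = 4.01e-05) without replicates 4 and 5 and 1.81 (adjusted p = 1.71e-05) with array weights.

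Among the 6 membrane subunits of complex V, 1 fell in LCM800 (16.7%, near the 20.1% of all probe sets), with a median of -0.26. In LCM20, 1 fell (16.7%, near 19.2%) and 1 rose (16.7%, beside 26.2%), with a median of 0.04. The one that fell, Atp5mg (subunit g, which helps pair the synthases into dimers), had the largest change of all members. Its signals were 3138, 3174, 3004 and 3727 in sieved, 29.1, 17.8, 53.9, 59.6 and 18.1 in LCM800, and 92.5, 124, 18.2 and 71.3 in LCM20 arrays. All 5 LCM800 arrays lay under the pseudocount of 65.29, so the size of the change depends on it: -5.06 ± 0.23 (adjusted p = 2.62e-09) and -4.61 ± 0.24 (adjusted p = 1.25e-08), but -6.70 and -5.71 with no pseudocount and -3.57 and -3.39 with 4 times it. A single probe set measured Atp5mg, so no other probe set bears on this value. Its mean log2 levels were 11.69 in sieved, 6.64 in LCM800 and 7.09 in LCM20 arrays. The LCM levels lay below those of the untested Cox6a2 (7.6 and 7.78). Atp5mg thus passed the filter on dim probe sets through the sieved arrays alone, and its p values carry that selection. Atp5mk, a small subunit also linked to dimers, rose in LCM20 by 0.96 (adjusted p = 0.00818) and changed by 0.42 in LCM800 (adjusted p = 0.172). The inhibitor Atp5if1 changed by -0.45 (adjusted p = 0.0655) and -0.15 (adjusted p = 0.581).

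**Figure D2:**
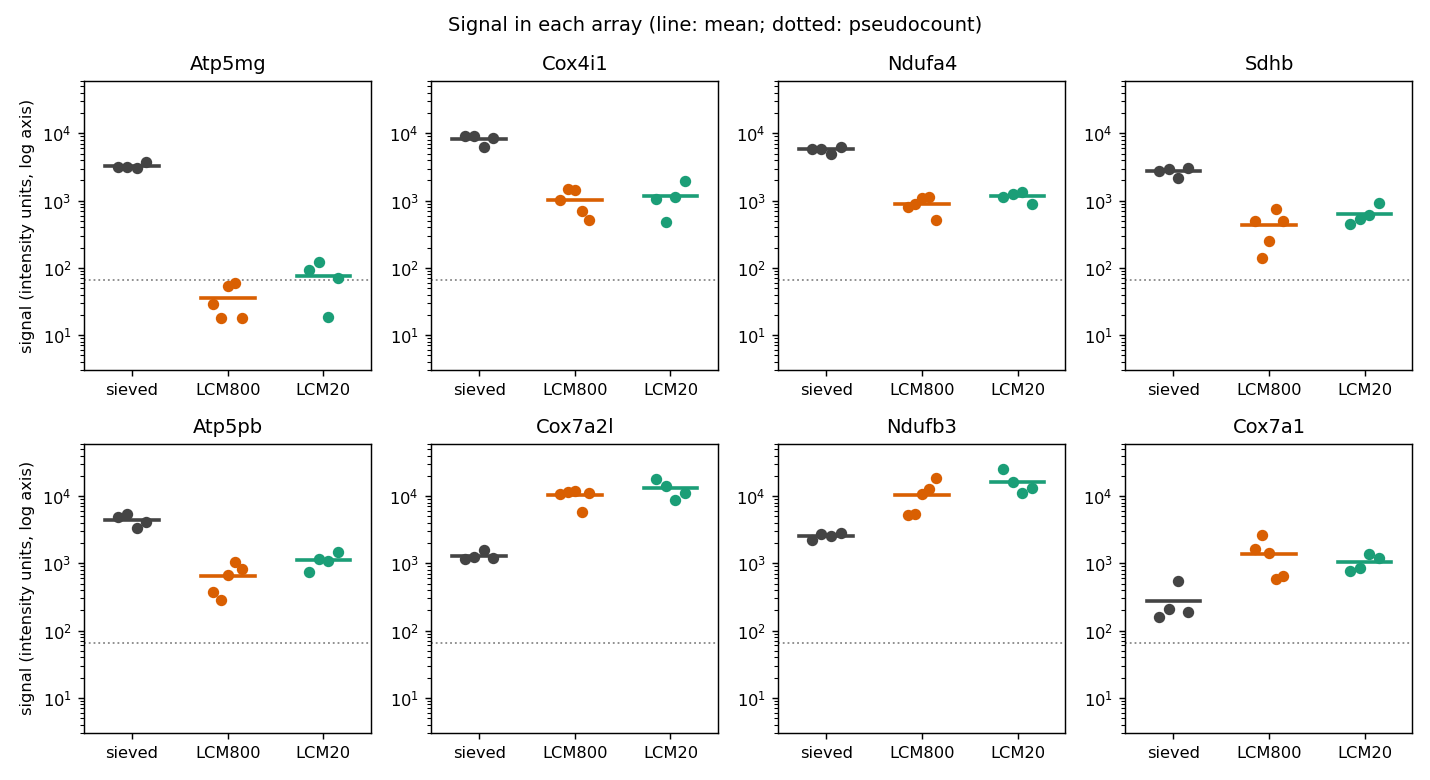
Signal of 8 subunit genes in each array on a log axis of intensity units, with dots for arrays, lines for group means and a dotted line at the pseudocount of 65.29. In Atp5mg, Cox4i1, Ndufa4, Sdhb and Atp5pb all LCM arrays lie below the sieved arrays, and in Cox7a2l, Ndufb3 and Cox7a1 all lie above them.

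The order of the complexes can also be read from mean levels per array. The mean log2 level over all 79 members was 11.05 ± 0.09 (SD, n = 4) in sieved, 10.20 ± 0.15 (n = 5) in LCM800 and 10.50 ± 0.11 (n = 4) in LCM20 arrays. Sieved replicate 3 was the lowest sieved array at 10.93, beside 11.04 to 11.13 in the others. That array also had the lowest tubule and the highest podocyte, endothelial and mesangial marker means of the sieved arrays, and any link was not tested. The mean over the 4 genes of complex II was 11.71 ± 0.16 in sieved, 9.95 ± 0.55 in LCM800 and 10.64 ± 0.17 in LCM20 arrays. Within LCM800 this mean ran from 9.32 in replicate 2 to 10.61 in replicate 4. For complex IV it was 10.15 ± 0.03, 9.91 ± 0.19 and 10.04 ± 0.18, so that the highest LCM20 array at 10.20 lay above the highest sieved array at 10.18. This complex IV mean takes in dim tissue isoforms, a pseudogene and Cox7a2l. Over the 9 subunits expressed in most tissues, it was 12.0 ± 0.12, 10.91 ± 0.19 and 11.09 ± 0.32. The lowest sieved array was then at 11.84, above the highest LCM800 array at 11.16 and the highest LCM20 array at 11.42. That regrouping was chosen after seeing the data. For complex V it was 11.89 ± 0.11, 10.67 ± 0.11 and 11.06 ± 0.14, with no overlap of sieved and LCM arrays. These means were not tested, since the members were chosen with results of these arrays known.

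**Figure D3:**
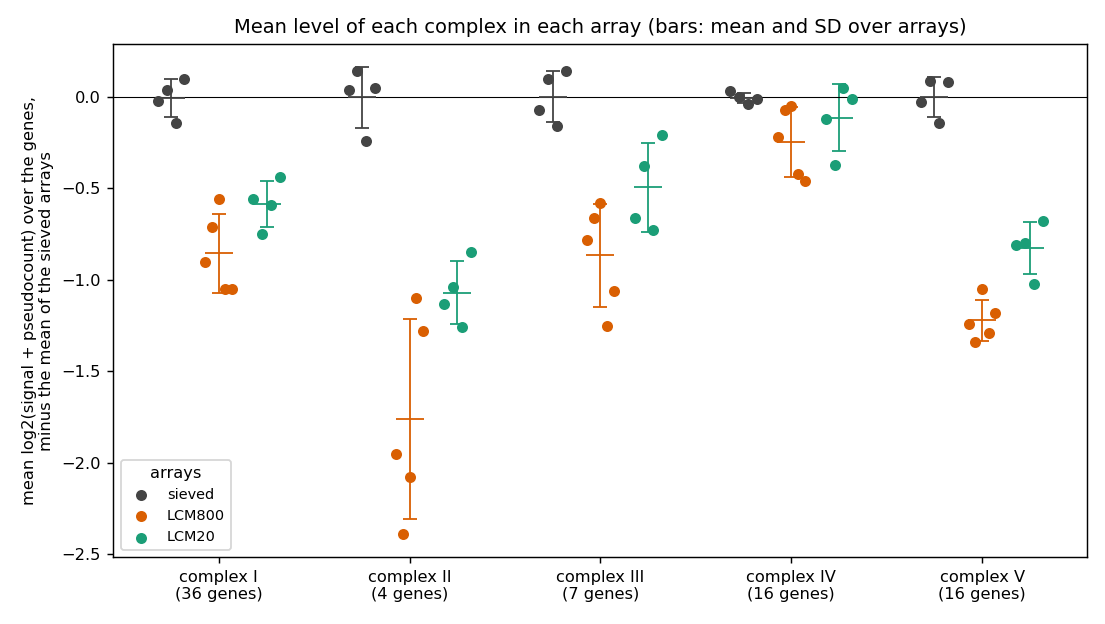
Mean log2(signal + pseudocount) over the genes of each complex in each array, minus the mean of the 4 sieved arrays; dots are arrays and bars give mean and SD over arrays. Complexes I, II, III and V lie below the sieved arrays in every LCM array, complex II spreads widest over the LCM800 arrays, and LCM20 arrays overlap the sieved arrays in complex IV. The complex IV mean takes in dim tissue isoforms, a pseudogene and Cox7a2l.

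Between the LCM groups, no member passed the test. In LCM20 against LCM800, 0 of 75 members were lower and 0 higher by limma's adjusted p, beside 0.081% and 0.072% of all probe sets, and the member median was 0.32 beside -0.06. At an unadjusted p under 0.05, 23 members were higher and 1 lower, beside 7.75% and 9.82% of all probe sets. With array weights, 11 members were higher (4.03% of all probe sets) and 0 lower (3.7%) by the adjusted p. Without LCM800 replicates 4 and 5, 21 members were higher and 7 lower, beside 11.4% and 11.9%, and Uqcrfs1 then differed by 2.67 (adjusted p = 0.00041) and Atp5f1c by 1.93 (adjusted p = 0.000219). Ndufs6, which was called in LCM20 (0.86, adjusted p = 0.0091) and not in LCM800 (-0.14, adjusted p = 0.62), differed between the LCM groups by 1.0 (adjusted p = 0.0748). That difference passed the test with array weights (0.81, adjusted p = 0.0414), without LCM800 replicate 4 (0.91, adjusted p = 0.0437), or with both replicates 4 and 5 left out (0.78, adjusted p = 0.0219), and in no other alternative run, with a highest adjusted p of 0.217. A call against sieved in 1 LCM group alone does not show a difference between the LCM groups.

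The 5 LCM800 arrays disagreed on a number of members, in both directions. Uqcrc1 had 4128, 5002 and 4608 in LCM800 replicates 1 to 3, close to the sieved 2596 to 4277, but 898 and 737 in replicates 4 and 5. Ndufs7 had 1837, 2127 and 2225 in the former and 506 and 282 in the latter, and Ndufb7, an accessory subunit of the membrane arm, had 1506, 1401 and 1745 against 330 and 309. In Cox7c, a small subunit of complex IV, the order was the other way: 984, 748 and 1426 in replicates 1 to 3 lay under the sieved 3424 to 4206, while 3421 and 4446 in replicates 4 and 5 did not. Uqcr11, a small subunit of complex III, had 8107, 10024 and 7685 in replicates 1 to 3, all above the sieved 2943 to 3237, and 1980 and 2299 in replicates 4 and 5, both below it.

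Group values of these members therefore depend on which LCM800 arrays enter. The fall of Cox7c in LCM800, -1.08 (adjusted p = 0.0388), was -1.82 (adjusted p = 3.33e-05) without replicates 4 and 5 and 0.05 (adjusted p = 0.892) without replicates 1 to 3. Its call was also lost without any 1 of the 4 sieved arrays or of LCM800 replicates 1 to 3 (-1.12 to -0.78, adjusted p 0.0614 to 0.102). The same held with quantile normalization (-0.96, adjusted p = 0.0716) and with only the groups compared (-1.08, adjusted p = 0.0661). Uqcr11 changed by 0.64 (adjusted p = 0.21), by 1.43 (adjusted p = 0.000135) without replicates 4 and 5 and by -0.54 (adjusted p = 0.102) without replicates 1 to 3. It also passed the test without replicate 4 alone (0.96, adjusted p = 0.0397). Uqcrc1 changed by -0.54 (adjusted p = 0.413), by -1.97 (adjusted p = 0.00186) without replicates 1 to 3 and by 0.42 (adjusted p = 0.311) without replicates 4 and 5. Over all members the counts against sieved moved little: leaving out any 1 array gave 38 to 42 lower and 7 to 10 higher in LCM800, and 29 to 37 lower and 10 to 12 higher in LCM20. The median of complex III in LCM800 moved from -0.57 to -0.02 without replicates 4 and 5 and to -1.40 without replicates 1 to 3.

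**Figure D4:**
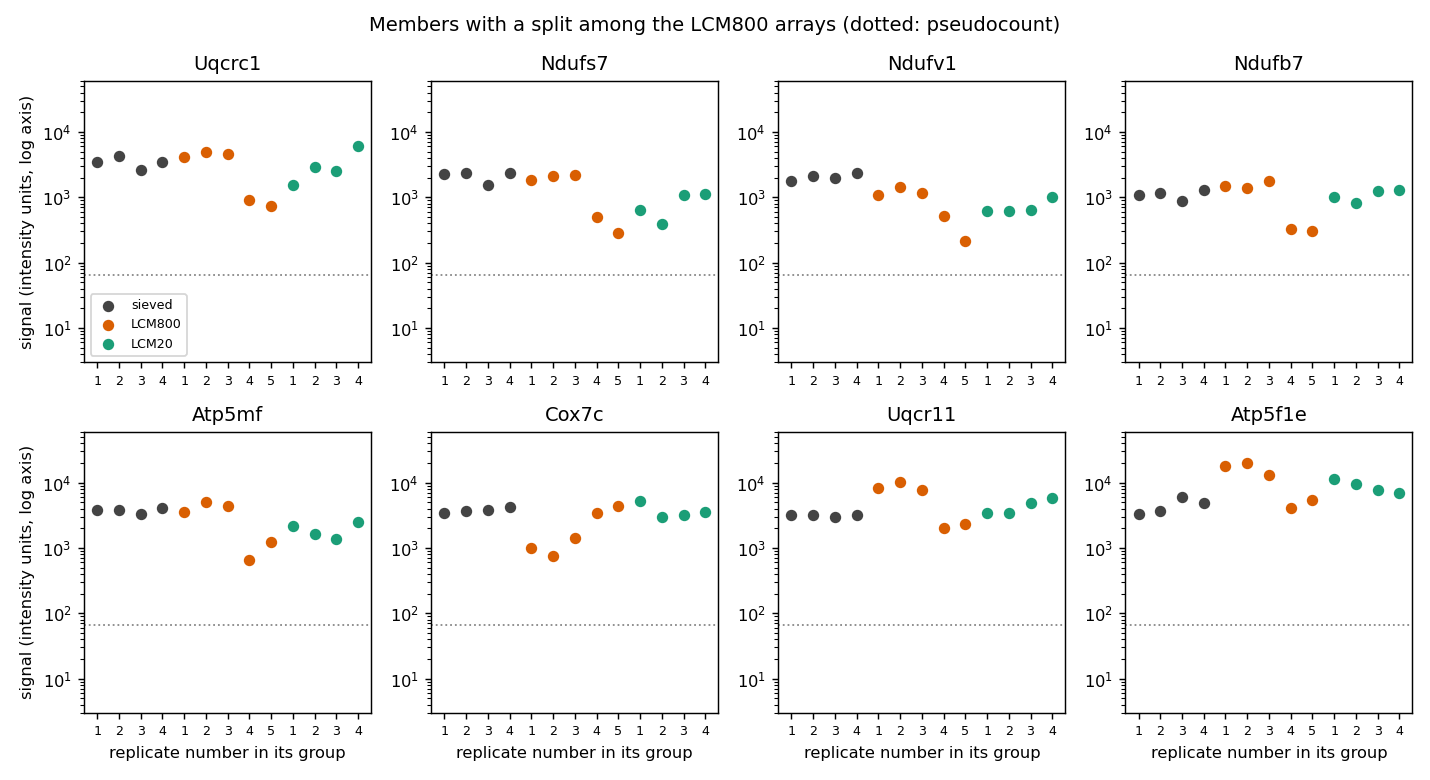
Signal of 8 subunit genes in each of the 13 arrays on a log axis of intensity units, by group and replicate number, chosen after their values were seen; the dotted line is the pseudocount of 65.29. LCM800 replicates 4 and 5 lie below replicates 1 to 3 in each gene shown except Cox7c, where they lie above them.

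Genes that work with the complexes were read against the shares of all probe sets, 20.1% lower and 31.8% higher in LCM800 and 19.2% and 26.2% in LCM20. These shares take no account of level. The tricarboxylic acid cycle list had a sieved mean log2 level of 10.98, assembly factors 9.0 and mitochondrial ribosomal proteins 9.37. Among all probe sets with a sieved level between 10.13 and 12.59, 49.9% were lower in LCM800 and 45.0% in LCM20. The part of level in the contrasts between these lists was not tested. Of 18 tested genes of the tricarboxylic acid cycle and pyruvate dehydrogenase, which feed the chain, 13 fell (72.2%) and 1 rose in LCM800 (median -1.13), and 9 fell (50%) in LCM20 (median -0.83). Suclg2, a subunit of succinyl-CoA ligase, fell, with log2 changes of -2.30 and -1.84 (adjusted p = 5.7e-07 and 9.56e-06) and Ogdh, of the oxoglutarate dehydrogenase, with -1.77 and -2.23 (adjusted p = 2.73e-05 and 8.24e-06). Idh2, the mitochondrial NADP-linked isocitrate dehydrogenase, rose by 1.21 in LCM800 (adjusted p = 0.0019). Of 18 genes of electron carriers and of ATP and phosphate export, 10 fell (55.6%) and 2 rose in LCM800 (median -0.88), and 4 fell (22.2%, near the share of all probe sets) and 1 rose in LCM20 (median -0.59). Vdac1, the outer membrane channel, fell, with log2 changes of -2.06 and -2.26 (adjusted p = 3.24e-05 and 3.05e-05), Cyc1, the cytochrome c1 of complex III, with -1.53 and -1.84 (adjusted p = 0.000445 and 0.000184), while Ucp2, an uncoupling protein homologue, rose by 1.59 and 0.72 (adjusted p = 4.69e-05 and 0.0237).

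Assembly factors, which build the complexes but are not part of them, had 6 lower (18.2%) and 12 higher (36.4%) of 33 tested in LCM800 (median 0.33) and 6 lower (18.2%) and 11 higher (33.3%) in LCM20 (median 0.39), shares near those of all probe sets. Uqcc1, a complex III assembly factor, rose by 1.73 and 1.22 (adjusted p = 6.45e-06 and 0.000264), and Cox10, which makes the heme of complex IV, by 1.33 and 1.10 (adjusted p = 9.81e-05 and 0.000919). Ndufaf3, a complex I assembly factor, fell, with log2 changes of -1.51 and -1.88 (adjusted p = 0.00718 and 0.00305). Of 68 mitochondrial ribosomal protein genes, 9 fell (13.2%) and 22 rose (32.4%) in LCM800 (median 0.18) and 7 fell (10.3%) and 24 rose (35.3%) in LCM20 (median 0.21), where all probe sets had medians of 0.22 and 0.17, so that the share that rose in LCM800 was near that of all probe sets. Mrpl44 was up by 1.72 and 1.46 (adjusted p = 1.8e-05 and 0.000158). Among 10 tested genes of mitochondrial biogenesis and DNA upkeep, 1 fell and 2 rose in LCM800 and 1 fell and 1 rose in LCM20. Tfam, which packs mitochondrial DNA, changed by 0.08 (adjusted p = 0.849) and 0.68 (adjusted p = 0.104).

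Markers of glomerular cells were read against the same shares. The podocyte list had a sieved mean log2 level of 11.55, in the range where 49.9% of all probe sets were lower in LCM800 and 45.0% in LCM20. The endothelial (9.44) and mesangial (8.38) lists were dimmer. Of 8 podocyte genes, 4 fell (50%) and 2 rose in LCM800 (median -0.15) and 3 fell (37.5%) and 2 rose in LCM20 (median -0.20). Of 10 glomerular endothelial genes, 1 fell (10.0%) and 4 rose (40.0%) in each (medians 0.71 and 0.67). Of 9 mesangial genes, 3 rose in LCM800 (33.3%) and 2 in LCM20 (22.2%), near the shares of all probe sets (medians 0.45 and 0.15). Of 14 tested genes of the loop, distal tubule and collecting duct, 8 fell (57.1%) and 1 rose in LCM800 (median -1.13) and 11 fell (78.6%) in LCM20 (median -2.03).

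Promoters were set beside these changes because subunit genes are known targets of nuclear respiratory factor 1 (NRF1), of ETS factors such as GABP (nuclear respiratory factor 2) and of estrogen-related receptors (ERR). RefSeq promoters on build GRCr8, from 250 bases before to 50 bases after the annotated start, were matched by gene ID for 71 of the 79 members. They are shown, 5′ to 3′ in the direction of the gene, for the members with the 3 largest falls and the 3 largest rises in LCM800 among those with a promoter, with matches on either strand to GCGCANGCG (NRF1), CCGGAAG (ETS) or AAGGTCA (ERR) in capitals.
Atp5mg, chr8:54130358-54130657, minus strand: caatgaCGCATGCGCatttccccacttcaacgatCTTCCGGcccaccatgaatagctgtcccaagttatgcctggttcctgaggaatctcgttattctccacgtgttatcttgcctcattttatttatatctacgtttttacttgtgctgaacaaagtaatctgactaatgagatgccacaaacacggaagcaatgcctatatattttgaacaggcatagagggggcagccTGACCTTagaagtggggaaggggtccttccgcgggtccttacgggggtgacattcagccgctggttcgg
Uqcrfs1, chr17:34186352-34186651, plus strand: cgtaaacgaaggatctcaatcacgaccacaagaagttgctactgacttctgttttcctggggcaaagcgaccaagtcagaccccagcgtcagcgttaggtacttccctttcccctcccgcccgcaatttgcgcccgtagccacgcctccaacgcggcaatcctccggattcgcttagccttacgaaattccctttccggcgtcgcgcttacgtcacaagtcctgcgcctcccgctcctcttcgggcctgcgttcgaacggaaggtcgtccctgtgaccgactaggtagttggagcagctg
Cox4i1, chr19:65630133-65630432, plus strand: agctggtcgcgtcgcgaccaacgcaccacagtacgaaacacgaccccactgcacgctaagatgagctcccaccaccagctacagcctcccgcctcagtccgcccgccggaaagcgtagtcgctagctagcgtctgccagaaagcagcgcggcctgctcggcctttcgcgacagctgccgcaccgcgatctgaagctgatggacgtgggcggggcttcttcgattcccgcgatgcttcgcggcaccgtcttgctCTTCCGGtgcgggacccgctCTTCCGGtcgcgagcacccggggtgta
Cox7a2l, chr6:16936324-16936623, plus strand: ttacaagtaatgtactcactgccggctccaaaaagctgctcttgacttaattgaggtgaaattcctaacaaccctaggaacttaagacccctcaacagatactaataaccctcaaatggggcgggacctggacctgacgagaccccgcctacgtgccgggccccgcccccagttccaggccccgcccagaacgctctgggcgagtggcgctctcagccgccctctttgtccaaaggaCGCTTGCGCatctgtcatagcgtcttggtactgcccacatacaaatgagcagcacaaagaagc
Cox7a1, chr1:94568966-94569265, plus strand: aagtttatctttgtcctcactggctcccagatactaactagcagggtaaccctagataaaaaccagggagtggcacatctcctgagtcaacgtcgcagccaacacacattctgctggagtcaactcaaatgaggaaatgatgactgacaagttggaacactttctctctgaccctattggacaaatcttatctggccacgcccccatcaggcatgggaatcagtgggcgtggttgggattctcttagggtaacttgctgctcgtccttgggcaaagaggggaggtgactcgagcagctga
Ndufb3, chr9:67623167-67623466, plus strand: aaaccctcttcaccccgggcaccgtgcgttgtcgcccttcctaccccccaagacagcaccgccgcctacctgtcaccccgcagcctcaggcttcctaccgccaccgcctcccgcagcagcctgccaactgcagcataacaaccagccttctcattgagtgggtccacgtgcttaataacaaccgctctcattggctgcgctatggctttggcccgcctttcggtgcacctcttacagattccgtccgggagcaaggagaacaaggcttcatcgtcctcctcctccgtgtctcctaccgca
Atp5mg, with the largest fall, holds 1 match to each of the 3 motifs, Cox4i1 holds 2 ETS matches, Cox7a2l, with the largest rise, holds 1 NRF1 match, and the windows of Uqcrfs1, Cox7a1 and Ndufb3 have none of these letters.

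Matches were found in members that fell, rose or did not pass the test. The NRF1 letters occurred in 17 of 71 member promoters (23.9%), beside 6.26% of all 27457 promoters and 11.9% of the 8611 that belong to genes on the array. The ETS letters occurred in 20 (28.2%), beside 9.22% and 15.5%, and the ERR letters in 11 (15.5%), beside 4.37% and 3.07%. By complex, NRF1 matches ran from 1 of 12 promoters in complex IV (8.33%) to 6 of 15 in complex V (40.0%). Of the 36 matched promoters of members that fell in LCM800, 27.8% held the NRF1, 30.6% the ETS and 11.1% the ERR letters. Of the 9 of members that rose, 22.2%, 11.1% and 11.1% did, and of the 22 of members not past the test, 22.7%, 36.4% and 27.3%. These matches are letters in a window and not measured binding, and the shares were not tested.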

How the data were processed

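RNA was measured on 13 one-colour Affymetrix Rat 230A arrays. The deposited values are intensity signals per probe set, from MAS5 according to the submitters' processing notes; the mean of each array after 2% was trimmed at each end was 500.1, so the authors' scaling was kept. Values were taken as log2(signal + 65.29), the 20th percentile of all signals. Controls (57 probe sets) and the dimmest 30% by mean log2 were left out, which left 11106 of 15923. Symbols came from the platform annotation: 12783 probe sets had 1 symbol, 312 several and 2828 none (controls included); 84 probe sets with 1 symbol matched the rule, and 7 with several symbols were left out. All 3 groups entered 1 limma 3.58.1 fit (R 4.3.3, eBayes with trend, no covariate), with Benjamini-Hochberg adjustment over all probe sets tested at 0.05, two-sided. The fit was tested on simulated data. No detection calls were used. Tests were chosen as a fit over all probe sets; alternatives covered scaling, pseudocount, filter, weights, replicate block, probe set choice and arrays left out. The members and lists were chosen with earlier results of these data known. Named members are the 3 largest falls and 2 largest rises per complex and comparison plus central subunits; others, including those of the split among LCM800 arrays, were chosen after their values were seen. Promoters came from RefSeq (GRCr8).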

Additional observations from a re-analysis of the deposited data

Results flagged for a closer look

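In 8 of 135 sets of values screened, or 5.93%, 1 array lay far from the others of its group on the log2 scale; chance gives about 1 in 20. The sets were the values of 39 subunit genes, of the 5 complexes and of all members in each of the 3 groups, and the 8 were values of single genes. In sieved replicate 3, Ndufs7 was at 10.66 and Uqcrc2 at 11.08, where the nearest other sieved arrays were at 11.21 and 11.68. In LCM800, replicate 4 was low in Cox7a2l (12.50, next array 13.42) and replicate 1 was low in Ndufs3 (7.85, next array 8.57). In LCM20, replicate 1 was low in Atp5if1 (9.61, next 10.04) and high in Ndufv2 (11.17, next 10.69), replicate 3 was low in Uqcrfs1 (9.31, next 10.25), and replicate 4 was high in Ndufv1 (10.08, next 9.46).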

How the results depend on the processing

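Counts of members lower than sieved stayed between 38 and 46 in LCM800 and between 29 and 41 in LCM20 over the alternatives run. Of 225 values of single members over the 3 comparisons, 150 kept their side of the threshold in every alternative, and 114 of these also kept their sign. In all, 61 values had another sign in at least 1 alternative, of which 1 had passed the test. In 2 cases 1 of the values of opposite sign passed the test, both in LCM800 against sieved without LCM800 replicates 1 to 3: Cox7c to 0.05 and Ndufa4l2 from 0.41 to -0.72; the cause was not tested. The number of arrays and the pseudocount limit the dim members.

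In LCM800 against sieved, the member median moved to -0.86 with 4 times the pseudocount, -0.93 with array weights, -0.89 without LCM800 replicates 4 and 5 and -0.89 when sieved replicate 3 was left out as well (an alternative chosen after seeing the data), and leaving out 1 array gave -1.12 to -1.01. Complex I moved to -0.86 with 4 times the pseudocount and -0.76 without LCM800 replicates 4 and 5 (1 array left out, -1.19 to -1.01). Array weights gave 16 higher members, and a median of -0.20 for complex III. Complex IV moved to -0.29 with quantile normalization, -0.00 with no filter, -0.85 with the lowest 60% left out, -0.24 without LCM800 replicates 4 and 5 and -0.26 without replicates 1 to 3. Leaving out replicates 1 to 3 gave -1.09 for complex II, -1.40 for complex III and -0.69 for complex V, and leaving out 4 and 5 gave -0.02 for complex III. With 1 array left out, complex II ran from -1.72 to -1.46, complex III from -0.85 to -0.32, complex IV from -0.58 to -0.24 and complex V from -1.25 to -1.14.

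In LCM20 against sieved, complex IV moved to -0.22 with the lowest 60% left out and to -0.22 with Ndufa4 and Ndufa4l2 counted there. Keeping the subunits expressed in most tissues gave -1.08 in LCM800 and -0.89 in LCM20; both regroupings were chosen after seeing the data, and they change the genes counted. Complex III moved to -0.47 with array weights. With 1 array left out, the member median ran from -0.74 to -0.62, complex I from -0.81 to -0.62, complex II from -0.96 to -0.79, complex III from -0.78 to -0.65, complex IV from -0.13 to 0.04 and complex V from -1.0 to -0.67.

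In LCM20 against LCM800, array weights gave 11 higher members, leaving out LCM800 replicates 1 to 3 gave 1, leaving out 4 and 5 gave 21 higher and 7 lower, leaving out sieved replicate 3 as well gave 20 and 10, and leaving out 1 array gave 0 to 5 higher. The median of complex III, 0.31, reversed to -0.27 with array weights, -0.08 with the replicate block and -0.49 without LCM800 replicates 4 and 5, with -0.08 to 0.45 when 1 array was left out; the cause was not tested. Without LCM800 replicates 1 to 3 complex II moved to 0.02, complex III to 0.64 and complex IV to 0.42.

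Replicate numbers are shared by the groups, and same-numbered arrays deviated from their group means with r from -0.244 to 0.233. Other differences between arrays of a group enter these deviations, so they cannot show whether the numbers mark the same rat. No pairing was used in the main fit. With the replicate block, 40 members were lower and 8 higher in LCM800, 34 lower and 11 higher in LCM20, and 0 differed between the LCM groups. The block ended the calls of Ndufa12 in LCM800 (0.56, adjusted p = 0.0743) and of Ndufa5 in LCM20 (-0.70, adjusted p = 0.0509) and changed no other call of a member. Quantile normalization and equal medians moved the median of all probe sets in LCM800 from 0.22 to 0.15 and 0.12, and the members then had 39 and 42 lower and 11 and 8 higher.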
